A study of Mus musculus with 5 samples.

Results

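The genes described here make, recycle and police polyamines, and they were followed in testis of wild-type mice and of males lacking Taf7l. They are the synthesis genes Odc1, Amd1, Srm and Sms, the antizyme genes Oaz1, Oaz2 and Oaz3, the antizyme inhibitor genes Azin1 and Adc (the older symbol of Azin2), and the acetyltransferase gene Sat1. All transcript rows carrying one of these 10 names were taken from the deposited expression table and joined by transcript identifier to the binding table. Of the 10 names, 9 had a row, with 17 of the 55350 transcript rows in all, and every one of the 17 rows was found in the binding table. The gene set was chosen by name after the changes of Oaz3 and Adc between the RNA libraries had been seen, so those measured values selected it. The changes below are therefore a description and have no test. All 9 genes had a mean signal of at least 1, the minimum used for the 12408 named genes compared.

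The study made 5 libraries from testis of 3-month-old mice. Messenger RNA was sequenced from wild-type males and from Taf7l-/Y males, which lack the X-linked TFIID subunit gene Taf7l, with 6 RNA extracts pooled into 1 library per genotype. The TAF7L, Pol II and control IgG chromatin immunoprecipitation libraries are labelled wild type. The labels give no strain and do not describe the allele or name the cells in which Taf7l is lost. With 1 library per group there was no replicate check, and every difference is given by its size. The ± values are the standard deviations (SD) deposited with each signal. What they were taken over is not stated, and they are no spread between animals.

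Polyamines (putrescine, spermidine and spermine) are small cations that bind nucleic acids and are needed for growth and translation. Ornithine decarboxylase makes putrescine, and spermidine and spermine synthases add aminopropyl groups supplied by S-adenosylmethionine decarboxylase. Antizymes bind ornithine decarboxylase, and their synthesis needs a ribosomal frameshift that polyamines stimulate. Some antizymes also send the decarboxylase to the proteasome and block polyamine uptake. Whether the antizyme made from Oaz3 does so was not tested. Antizyme inhibitors resemble ornithine decarboxylase, have no decarboxylase activity and sequester antizyme. Oaz3 is the antizyme of haploid germ cells, and antizyme inhibitor 2 is known for expression in testis and brain.

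Promoter sequences of 4 members are shown to set the letters beside the binding scores given further on. RefSeq promoter sequences (GRCm38.p6, 250 bases before to 50 after the start) matched 6 of the 10 names, namely Odc1, Amd1, Oaz1, Oaz2, Sms and Sat1. Capitals mark TATAAA (the TATA box), GGGCGG (the GC box) and CCAAT, each searched on both strands, so that a GC box can read CCGCCC. In Oaz2, neighbouring GC boxes overlap, and its sequence is that of the RefSeq gene start, not of the shorter row named Oaz2 in the binding table. TGACGTCA and CACGTG were searched too and matched none of the 4 sequences printed. Of the sequences not printed, start 1 of Sms held a CACGTG at -196. The sequences lie at chr12:17544623-17544922 (plus strand), chr10:80826406-80826705 (plus strand), chr9:65676298-65676597 (plus strand) and chrX:155216400-155216699 (minus strand), and read 5′ to 3′.
Odc1: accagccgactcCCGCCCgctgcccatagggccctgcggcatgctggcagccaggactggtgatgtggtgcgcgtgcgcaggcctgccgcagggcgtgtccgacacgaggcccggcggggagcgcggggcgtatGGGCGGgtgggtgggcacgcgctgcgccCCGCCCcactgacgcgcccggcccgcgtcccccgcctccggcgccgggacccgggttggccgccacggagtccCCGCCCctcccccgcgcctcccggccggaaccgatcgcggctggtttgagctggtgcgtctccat
Oaz1: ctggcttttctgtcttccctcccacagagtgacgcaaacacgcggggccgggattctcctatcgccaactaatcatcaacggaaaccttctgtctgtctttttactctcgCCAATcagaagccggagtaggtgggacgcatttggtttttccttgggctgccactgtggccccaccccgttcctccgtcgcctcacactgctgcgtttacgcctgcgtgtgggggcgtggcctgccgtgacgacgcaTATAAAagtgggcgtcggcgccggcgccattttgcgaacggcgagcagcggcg
Oaz2: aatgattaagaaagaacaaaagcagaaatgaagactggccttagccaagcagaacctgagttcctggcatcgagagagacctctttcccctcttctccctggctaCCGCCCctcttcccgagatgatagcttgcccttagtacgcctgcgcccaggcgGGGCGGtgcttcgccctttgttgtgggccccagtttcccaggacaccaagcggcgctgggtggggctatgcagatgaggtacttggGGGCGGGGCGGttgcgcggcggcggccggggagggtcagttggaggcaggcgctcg
Sat1: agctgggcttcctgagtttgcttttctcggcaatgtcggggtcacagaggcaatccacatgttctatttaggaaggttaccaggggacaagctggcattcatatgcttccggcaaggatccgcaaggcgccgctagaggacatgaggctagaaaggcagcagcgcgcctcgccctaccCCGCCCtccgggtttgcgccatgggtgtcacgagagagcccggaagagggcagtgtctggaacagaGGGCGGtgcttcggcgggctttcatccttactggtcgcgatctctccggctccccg
The Odc1 and Oaz2 sequences each held 4 GC boxes and the Sat1 sequence 2. Oaz1 had none and was the sequence of the 4 with a TATAAA, at position -3 from the RefSeq start, and a CCAAT at -140. The TATAAA runs across that start and is given as a match of letters, not as the TATA box of that start. Of all 32851 promoter sequences of this length, 35.7% held GGGCGG, 13.6% TATAAA, 37.4% CCAAT, 1.79% TGACGTCA and 7.15% CACGTG. The 4 sequences held 42, 29, 19 and 21 CpG dinucleotides in the order shown, against a median of 7 over all promoters. Of those not printed, Amd1 held 24, start 1 of Sms 12 and start 2 of Sms 38.

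Taf7l itself, as a check of the labels, had a signal of 13.2 ± 1.56 in wild-type testis and 2.04 ± 0.60 in the knockout. Changes below are log2((knockout + 1)/(wild type + 1)), a scale that understates the change of low genes, and their median over all 12408 genes was 0.40. Testis germ cell markers were present in both libraries. All 10 spermatid markers were at least 2-fold lower in the knockout, and their summed signal was 66214 in wild-type testis and 11929 in the knockout. The 8 spermatocyte markers had a median change of 0.86, with 2 at least 2-fold higher and none lower, while their sum, carried by Ldhc, was 3165 and 3012. The 6 spermatogonial markers had a median of 1.02, with 3 higher and none lower, and summed to 50.4 and 114.7. The 7 Sertoli cell markers listed had a median of 0.89 and summed to 763 and 1540, and the 5 macrophage markers had 0.94 and summed to 31.8 and 76.4. The 5 Leydig cell markers had a median of 0.89, with 2 at least 2-fold higher and none at least 2-fold lower on this scale. Star, with 23.5 and 11.7 (-0.95), and Insl3 (-0.68) were lower in the knockout. The sum of the 5, carried by Insl3, was 1894 and 1523. The 6 epididymal markers, of which Lcn5 was listed at 0 in the wild type, summed to 0.245 and 129.4. Crisp1 (75.9) and Defb28 (49.6) carried the knockout sum, and 3 of the 6 reached the mean of 1. In whole testis, fewer cells of a type and less RNA per cell cannot be told apart.

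The gene of ornithine decarboxylase, the first enzyme of the pathway, had nearly the same signal in both libraries. Odc1 (chromosome 12, 17551678 to 17558308, mm9) had 184 ± 6.15 in wild-type testis and 167 ± 6.14 in the knockout, or a log2 change of -0.14. The intervals of 1 SD did not overlap, at 178 to 191 and 161 to 173. Set against the median of all genes, the change was -0.55.

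The genes of the aminopropyl transferases were low and had the higher signal in the knockout. Srm, the gene of spermidine synthase (chromosome 4, 147965621 to 147968728), had 5.40 ± 1.39 in wild-type testis and 11.7 ± 2.20 in the knockout. Sms, the X-linked gene of spermine synthase (153881885 to 153929978), had 1.63 ± 0.474 and 3.32 ± 0.746. Their changes were 0.99 and 0.71 with the pseudocount of 1, just inside 2-fold for Srm. In the authors' deposited table, which adds almost nothing to the signals, the same changes were 1.12 and 1.02. With the knockout signals scaled so that the median change of all genes was 0, they were 0.54 and 0.35.

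S-adenosylmethionine decarboxylase had no row under the name Amd1. A row named Amd2 on chromosome 10 (40007264 to 40021992) had 16.4 ± 1.42 in wild-type testis and 29.4 ± 2.32 in the knockout, a change of 0.80. That row spans 14729 bases, while RefSeq (GRCm38) gives 14731 for Amd1 and 3201 for Amd2, and lists Amd1 as an older symbol of Amd2. The row is therefore given under the table's own name and is not counted among the members. Reads shared with near-identical copies could not be separated.

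**Figure D1:**
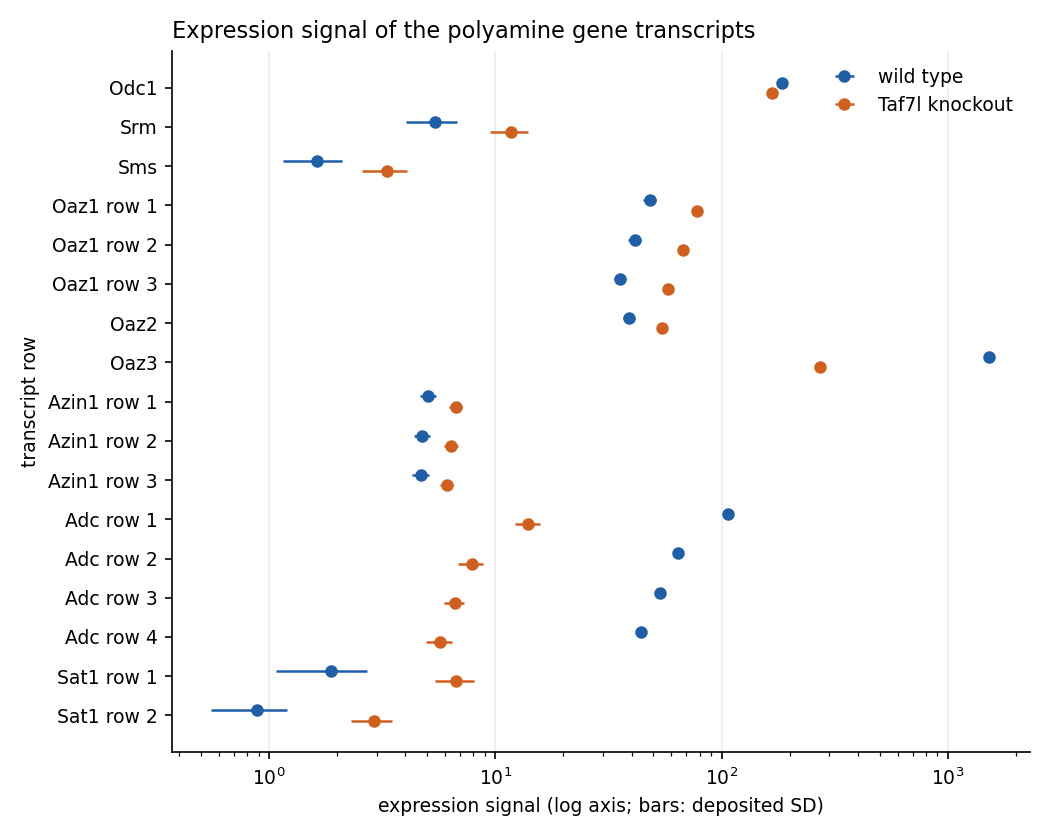
Expression signal (log axis) of each of the 17 transcript rows in the wild-type (blue) and Taf7l knockout (orange) library, with the deposited SD as bars. Oaz3 and all 4 Adc rows lie lower in the knockout by more than 5-fold, and Odc1 is nearly level. The remaining rows lie higher in the knockout, by up to 3.56-fold in Sat1.

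Antizyme transcripts differed in direction. Oaz3, the haploid germ cell antizyme (chromosome 3, 94237087 to 94240538), had 1521 ± 27.8 in wild-type testis and 273 ± 9.72 in the knockout, 5.58-fold lower with a log2 change of -2.48. It ranked 28 from the top of all genes by wild-type signal and 239 by knockout signal. Oaz1, the ubiquitous antizyme (chromosome 10, 80289400 to 80292035), had 48.2 ± 3.15 and 77.8 ± 3.65, a change of 0.68. Oaz2, a second broadly expressed antizyme (chromosome 9, 65534002 to 65538107), had 39.1 ± 2.30 and 54.4 ± 2.57, a change of 0.47. Oaz1 and Oaz2 were thus higher in the knockout on the deposited scale. After the knockout signals were multiplied by 0.711, which sets the median change to 0 (rescaling), Oaz1 was at 0.20 and Oaz2 at -0.01, and Oaz3 at -2.97.

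The makeup of the antizyme signal differed between the libraries. The header names no unit, and shares between genes hold only if the signal is per length, as Cufflinks values are. Each gene entered with its most abundant row only. The other Oaz1 rows, with 41.4 and 35.7 in wild-type testis and 67.7 and 57.9 in the knockout, are left out. So is the longer row at the Oaz2 locus given further on. With those rows added, the share of Oaz3 would be lower, and in the knockout Oaz3 would no longer be the larger part. The ratios to Odc1, which has 1 row, would be higher, and Oaz1 and Oaz2 together would exceed Odc1 in both libraries. Oaz3 made up 94.6% of the summed signal of the antizyme genes in wild-type testis and 67.3% in the knockout. Oaz1 accounted for 3.00% and 19.2%, and Oaz2 for 2.43% and 13.4%. The sum was 1608 in wild-type testis and 405 in the knockout, 8.72 and 2.43 times the Odc1 signal of the same library. Without Oaz3, Oaz1 and Oaz2 together were 0.473 times Odc1 in wild-type testis and 0.792 times in the knockout.

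The antizyme inhibitor genes also differed from each other. Adc (chromosome 4, 128607476 to 128639661) had 106 ± 4.82 in wild-type testis and 14.0 ± 1.75 in the knockout in its most abundant row, 7.60-fold lower and a change of -2.84. Azin1, the broadly expressed inhibitor (chromosome 15, 38417184 to 38449021), had 5.05 ± 0.415 and 6.70 ± 0.447, a change of 0.35 that became -0.07 after rescaling. Adc thus made up 95.5% of the summed inhibitor signal in wild-type testis and 67.6% in the knockout. The sum was 0.604 times the Odc1 signal in wild-type testis and 0.124 times in the knockout. These values too take only the most abundant row of each gene. With the further rows of Adc and Azin1 added, the ratios to Odc1 would be higher and the share of Adc a little lower in both libraries.

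The rows of Adc, Oaz1 and Azin1 had similar changes within each gene. The 4 Adc rows share the higher coordinate of their span, 128639661. They had 106, 64.4, 53.5 and 43.9 in wild-type testis, and in the same order 14.0, 7.86, 6.61 and 5.70 in the knockout. Their changes ran from -2.88 to -2.74. The 3 Oaz1 rows had changes of 0.68 to 0.70, and the 3 Azin1 rows, which share 1 span, changes of 0.32 to 0.36. Rows of a gene share reads and are not replicates.

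Sat1, the X-linked gene of the acetyltransferase that starts polyamine breakdown and export (151647681 to 151650952), was the member with the largest higher value. Its more abundant row had 1.89 ± 0.814 in wild-type testis and 6.72 ± 1.30 in the knockout, 3.56-fold higher and a change of 1.42. Its other row, of the same span, had 0.881 ± 0.325 and 2.91 ± 0.603, a change of 1.06. The wild-type SD was 0.431 of the mean, the largest such ratio among the 17 rows. After rescaling the change was 1.00, just under 2-fold before rounding.

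In all, 2 of the 9 genes were at least 2-fold lower in the knockout, Adc and Oaz3, where 7.32% of all genes compared were. At least 2-fold higher was 1 of the 9, Sat1, beside 7.37% of all genes. The other 6 lay within 2-fold. After rescaling, Adc and Oaz3 were still the 2 lower members, beside 12.7% of all genes, and none of the 9 was at least 2-fold higher, beside 1.03%. The median change of the members was 0.47, beside 0.40 for all genes. By size of change, Adc ranked 40 and Oaz3 52 from the lowest of the 12408 genes, and Sat1 132 from the highest. Since the names were chosen with the changes of Oaz3 and Adc known, these counts support nothing beyond themselves. The spermatid markers had a median change of -2.34, the direction of Oaz3 and Adc. The spermatocyte, spermatogonial, Sertoli cell, Leydig cell, macrophage and epididymal lists had medians above 0, the direction of Sat1 and of the median of all genes. The sums of the spermatocyte and Leydig cell lists were nonetheless lower in the knockout, and the epididymal median rests on 3 markers. The part of these cell types in the values was not tested.

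**Figure D2:**
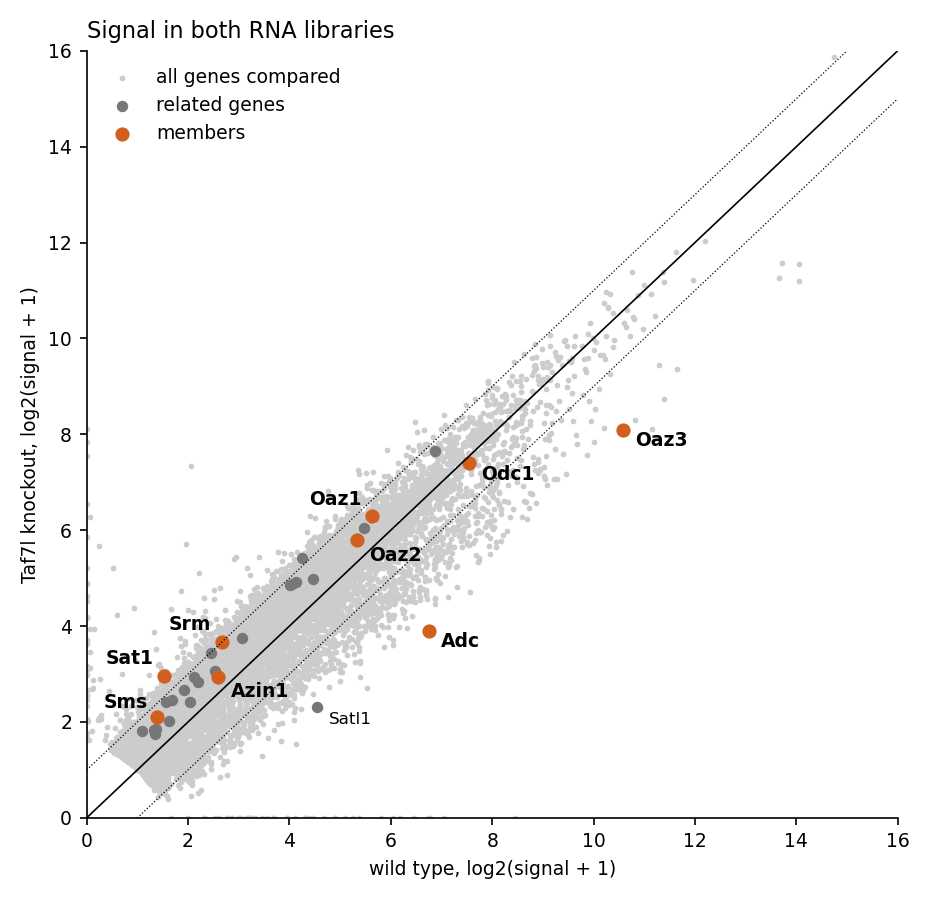
Signal of all 12408 genes compared (light grey) in the wild-type (x axis) and knockout (y axis) library, as log2(signal + 1), with the members in orange, related polyamine genes in dark grey, equality as a solid line and 2-fold as dotted lines. Oaz3, Adc and the related gene Satl1 lie below the lower dotted line, and Sat1 and the related gene Oat lie above the upper one.

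Genes of similar signal in both libraries were found by distance on the scale log2(signal + 1), over these 2 libraries. The 5 nearest to Oaz3 were Odf1, with 1796 in wild-type testis and 312 in the knockout, Prm3 with 1178 and 280, Mir1956, Gm9999 and Cypt12, at distances of 0.31 to 0.64. Odf1 encodes an outer dense fibre protein of the sperm tail. The 5 nearest to Adc were Tlcd4, with 79.1 and 14.6, H2al3 with 84.5 and 17.6, Gm5893, Ubqlnl and Spatc1, at distances of 0.43 to 0.58. The nearest to Sat1 were Entpd2, with 1.98 and 6.66, Plp2, Pdpn, Tagln2 and Rundc3b, at distances of 0.05 to 0.12. Low signals such as those of Sat1 are crowded, which makes small distances common.

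The wider pathway was read from 30 further genes in 5 lists, of which 22 reached the mean of 1. Of the 22, 1 was at least 2-fold higher, beside 7.37% of all genes, and 1 at least 2-fold lower, beside 7.32%. Their median change was 0.70, against 0.40 for all genes. Satl1, an X-linked relative of the Sat1 acetyltransferase, was the lower one, with 22.2 ± 2.26 in wild-type testis and 3.95 ± 0.846 in the knockout, a change of -2.23. Oat, whose enzyme interconverts ornithine and glutamate semialdehyde, was the higher one, with 18.0 ± 2.02 and 42.1 ± 2.82, a change of 1.18. After rescaling Satl1 was still past 2-fold and Oat was not.

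Precursor supply was represented by 3 of 8 genes. Besides Oat these were Mat2a, the catalytic subunit of S-adenosylmethionine synthetase outside the liver, with 15.0 and 28.0, and its regulatory subunit Mat2b with 3.34 and 6.61. The arginases Arg1 and Arg2, which release ornithine from arginine, had wild-type signals of 0.22 and 0.47 and did not reach the mean of 1. Among the oxidases of polyamine breakdown, Smox had 1.14 and 2.49 and Paox 1.52 and 2.56. Sat2 had 2.22 and 4.53.

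No gene of methylthioadenosine salvage, the hypusine pathway or transport passed 2-fold on the scale with pseudocount 1. All 5 salvage genes were measured, with a median change of 0.64. Apip was the most abundant of them with 15.5 and 28.5. All 4 genes of the hypusine pathway, which modifies the translation factor eIF5A with a part of spermidine, were measured, with a median of 0.54. Eif5a had 43.6 ± 1.64 and 64.9 ± 1.86, and Dohh, its hydroxylase, 21.2 and 30.7. Of 8 transport genes 5 were measured, with a median of 0.77. Slc7a1, the cationic amino acid transporter, had 4.50 and 9.87, a change of 0.98. The lysosomal polyamine exporter gene Atp13a2 had 4.76 and 7.39.

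**Figure D3:**
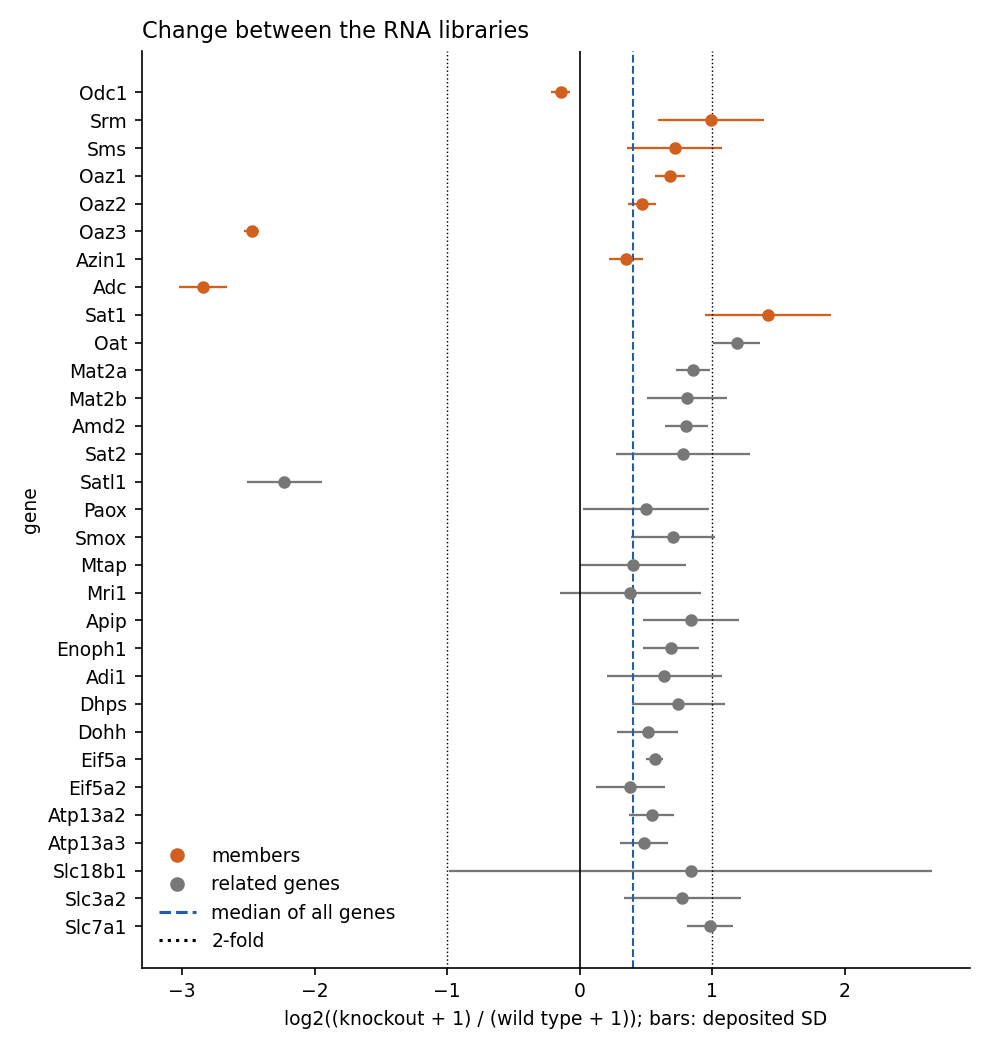
Log2 change between the knockout and wild-type libraries for the 9 members (orange) and the 22 related genes measured (grey), with bars of 1 deposited SD carried through the logarithm. Adc, Oaz3 and Satl1 lie below -1, and most other genes lie between 0 and 1, around the dashed line at the median of all genes.

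TAF7L and Pol II binding scores were read from wild-type chromatin. The scores are the authors' own, in promoter, proximal and distal classes, and the file explains neither how they were made nor the distances. The IgG library had no column, so no background level is given. A TAF7L promoter score stood at 4 of the 9 genes, Odc1, Oaz1, Azin1 and Adc, beside 55.1% of all genes compared. A Pol II promoter score stood at 8 of the 9, beside 86.7%. Oaz2 was counted from the short row under its own name, whereas the background joins rows listed under older symbols. The longer row at its locus, named Oaz2-ps, has promoter scores of 109 (TAF7L) and 1180 (Pol II). Counted with that row, Oaz2 would join both groups. TAF7L proximal scores stood at 4 members, beside 33.8% of all genes, and distal scores at 5, beside 53.6%. Pol II proximal scores stood at 5, beside 63.3%, and distal scores at 7, beside 77.1%. Sms and Sat1, both X-linked, had no TAF7L score in any class, as did 22.2% of all genes.

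Among the synthesis genes with a row under their own name, Odc1 had the highest promoter scores, with 70.3 for TAF7L and 852 for Pol II. The row named Amd2, close to the RefSeq length of Amd1, had 58.6 for TAF7L and a higher 1250 for Pol II. Genes with a score had a median of 71.8 (TAF7L) and 374 (Pol II). Srm and Sms had Pol II promoter scores of 142 and 131 and no TAF7L promoter score. Srm had a distal TAF7L score of 128 and a distal Pol II score of 1080, the values that the binding table gives as promoter scores of Tardbp, 17762 bases away. Sat1 had a Pol II promoter score of 80.2, the lowest of the 8.

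Oaz1 and Azin1 had higher TAF7L promoter scores than Adc and Oaz3. Azin1 had promoter scores of 91.7 for TAF7L and 1270 for Pol II, and Oaz1 had 81.6 and 745. Adc had 36.0 for TAF7L, in the lowest 7.26% of genes with a score, and 622 for Pol II. Oaz3 had 0 for TAF7L and 313 for Pol II. With 1 library per antibody these differences have no replicate check. The row named Oaz2 had 0 for both factors, but its proximal scores of 109 and 1180 are the promoter scores of a longer row named Oaz2-ps at the same locus. RefSeq lists Oaz2-ps as an older symbol of Oaz2 and gives the gene a length of 13753 bases. The longer row spans 13754 bases, against 4106 for the row named Oaz2, and had signals of 44.8 and 60.5.

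The higher scores near Oaz3 are also listed at its neighbours. The proximal scores of Oaz3, 187 for TAF7L and 839 for Pol II, are the promoter scores of Mrpl9, a mitochondrial ribosomal protein gene 6719 bases away. Mrpl9 had expression signals of 11.4 in wild-type testis and 19.3 in the knockout in its more abundant row, a change of 0.71, beside -2.48 for Oaz3. The distal Pol II score of 672 is the promoter score of Tdrkh, a Tudor-domain gene whose nearest row ends 531 bases from Oaz3 and had 2.89 and 5.64. Which start a score belongs to is not given in the binding table. A clone row, AK018134, overlaps Oaz3 and had signals of 1.90 and 2.26.

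**Figure D4:**
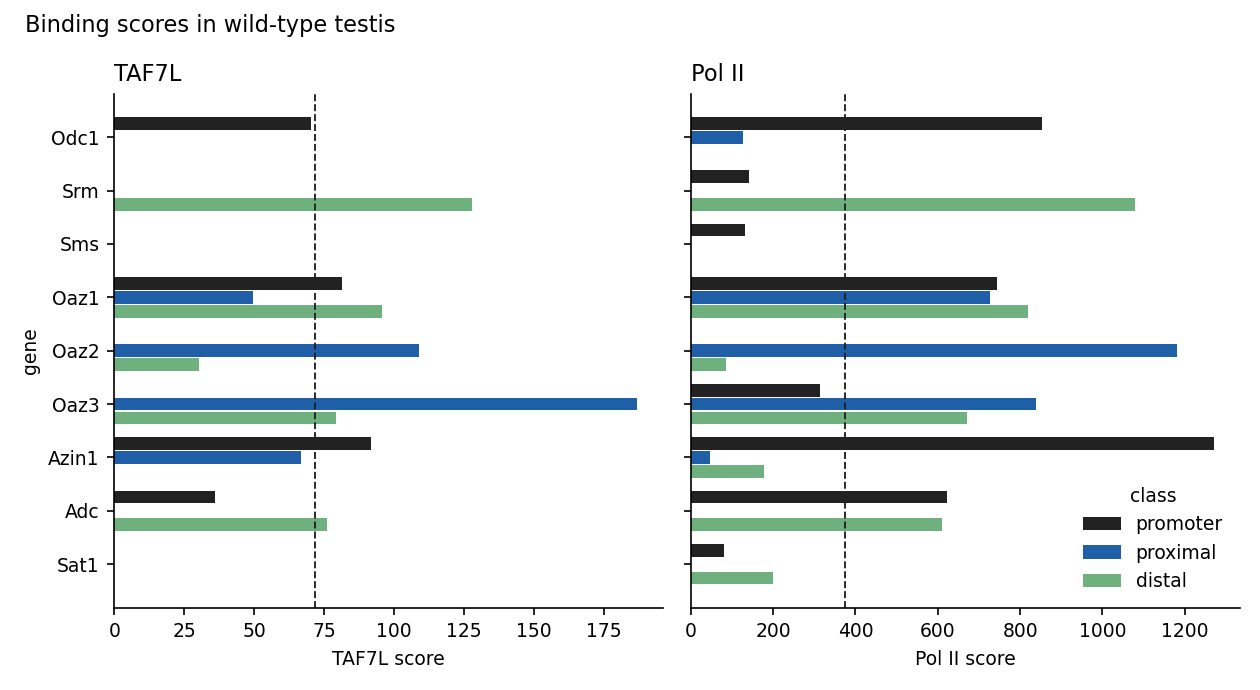
TAF7L (left) and Pol II (right) scores of the 9 members in wild-type testis, in promoter (black), proximal (blue) and distal (green) classes, with the median promoter score of genes with a score as a dashed line. Oaz3 has no TAF7L promoter bar and the longest proximal bar, and Sms and Sat1 have no TAF7L bar.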

How the data were processed

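In each genotype 6 RNA extracts were pooled into 1 library, with 100 to 200 M reads per library (1 M being 1e+06) per the labels, and the depth of the ChIP libraries is not given. The submitters' processing notes name Bowtie, TopHat and Cufflinks for RNA, Bowtie for ChIP and the build mm9, without versions. The authors deposited a mean and SD of an expression signal per transcript, with no unit in the header, and a log2 ratio (wild type over knockout). The deposited binding scores are undefined in the header.

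Names were matched to RefSeq symbols (GRCm38, names only), which gave 21672 genes from 46942 of 55350 rows. The row with the highest mean stood for each gene, and the 12408 genes whose mean reached 1 entered the comparison (pseudocount 1, call at 2-fold). No test was possible. The calling code was run on simulated data, which checks the code only. How reliable the calls are was not tested. Python 3.11 was used. Members, gene lists, motifs and the rule for similar genes were chosen with earlier results of these data known. Shared scores were sought within 100 kb. Counting by strand is not stated, so overlapping and antisense genes cannot be separated. Named are all members, the related lists and the 5 genes most similar to each member past 2-fold. Alternatives were another pseudocount, filter, scaling, row summary, ratio and score threshold.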

Additional observations from a re-analysis of the deposited data

How the results depend on the processing

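Adc and Oaz3 were at least 2-fold lower under each of the 6 alternatives run, the count staying at 2. The share of all genes that much lower ran from 4.21% with no filter on the mean to 12.7% after rescaling. It was 10.1% at a mean of at least 5, where 7 members remain. Since the names were chosen with these 2 changes known, the steady count supports nothing further. The count of members at least 2-fold higher was 1 as reported and moved with the settings. It was 2 with a pseudocount of 0.1 (Sat1 and Srm), where 16.4% of all genes were that much higher, and 3 with the authors' deposited log2 ratio (Sat1, Srm and Sms), where 18.5% were. It was 0 after rescaling the knockout to a median change of 0, where 1.03% of all genes were higher and 12.7% lower, and 0 at a mean of at least 5, which leaves Sat1 and Sms out. The knockout signals set the rescaling, and under it Azin1 and Oaz2 turned to -0.07 and -0.01. A TAF7L promoter score stood at 4 members, beside 55.1% of all genes. It stood at 2, Oaz1 and Azin1, when the score had to reach the median of genes with a score. The share of all genes at that threshold was not counted. Oaz2 would join both counts if the longer row named Oaz2-ps stood for it. No paired analysis was possible because each genotype has 1 library. Sat1, Sms and Srm had low signals with SDs of 0.188 to 0.431 of the mean, and what sets these SDs is not stated.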
